A study of Mus musculus with 16 samples.

Results

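The regions described here were the H2AK119ub1 peaks of wild type mouse embryonic stem cells (mESC) that were also marked after neural differentiation, with and without PCGF5. Of 8672 H2AK119ub1 peaks called in wild type mESC, 762 were overlapped by at least 1 bp by an H2AK119ub1 peak of wild type neural precursor cells (NPC) and also by one of PCGF5-depleted NPC, and these 762 peaks are called members. A further 663 mESC peaks were overlapped in wild type NPC alone, 542 in PCGF5-depleted NPC alone and 6705 in neither. Of all mESC peaks, 16.4% were overlapped in wild type NPC and 15.0% in PCGF5-depleted NPC. The members were chosen by these 3 lists, so the width, fold and H2AK119ub1 coverage of members in them are given as descriptions.

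The study used chromatin immunoprecipitation and sequencing in mESC and in NPC at day 6 of neural differentiation, and the peak lists of 10 of its 16 libraries were used here. Wild type and PCGF5-depleted cells (genotype label shPCGF5) each had 1 list for H2AK119ub1 and 1 for H3K27me3 at both stages, and PCGF5 itself was mapped through a Flag tag in mESC and NPC with a 3×Flag knock-in at Pcgf5. The mESC came from a line with a fluorescent neural reporter and were grown on fibroblast feeders with leukemia inhibitory factor and the 2i inhibitors, while NPC were grown in suspension. Each group had 1 library, so no value has a replicate error and no test between conditions was possible. Intervals are 95% Wilson intervals that cover counting error alone and treat each peak or gene as independent. The lists held no read totals, so depth is unknown, and they held no measure of Pcgf5 RNA or protein with which to check the depletion. The lists ranged from 3845 to 14759 peaks for the histone marks, and held 653 and 12013 peaks for Flag-PCGF5 in mESC and NPC.

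H2AK119ub1 is a single ubiquitin on a lysine near the end of histone H2A, placed by Polycomb repressive complex 1 (PRC1), in which PCGF5 is one of several alternative subunits beside the ligase RING1A or RING1B. H3K27me3 is the trimethylated histone H3 placed by Polycomb repressive complex 2 (PRC2), whose catalytic subunit is EZH1 or EZH2. In embryonic stem cells both marks are known from CpG-rich promoters of developmental regulators that are silent or nearly so, and many of these genes lose the marks only in the lineage that uses them.

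The sequences of 6 members or parts of them show kinds of DNA in which members were called. All are from NCBIM37 (mm9), 5′ to 3′, with CpG in capitals. They are the central bases of members on the plus strand, named by the gene with the nearest start site. Gas8 marks chr8:126070098-126070397 in an array of ribosomal RNA genes, and Ezh2 marks chr6:47616447-47616746 in a second repeat array. Prex1 marks chr2:166267301-166267525, the whole member of highest fold outside repeated sequence as defined below by 32-base words. Its nearest start, that of Prex1, lies 140158 bp away. Six3 marks chr17:86021831-86022130 in the widest member outside repeated sequence. Skor1 (chr9:62991894-62992193, intron) and Uncx (chr5:140022542-140022841, mostly coding exon) were added after their values were seen, as strong members near developmental genes.
Gas8: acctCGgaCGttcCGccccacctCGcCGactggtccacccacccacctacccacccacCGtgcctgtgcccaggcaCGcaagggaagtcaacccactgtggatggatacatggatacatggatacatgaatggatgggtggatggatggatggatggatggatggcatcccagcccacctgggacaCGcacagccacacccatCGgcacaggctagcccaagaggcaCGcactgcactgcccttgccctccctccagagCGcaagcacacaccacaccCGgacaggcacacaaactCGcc
Ezh2: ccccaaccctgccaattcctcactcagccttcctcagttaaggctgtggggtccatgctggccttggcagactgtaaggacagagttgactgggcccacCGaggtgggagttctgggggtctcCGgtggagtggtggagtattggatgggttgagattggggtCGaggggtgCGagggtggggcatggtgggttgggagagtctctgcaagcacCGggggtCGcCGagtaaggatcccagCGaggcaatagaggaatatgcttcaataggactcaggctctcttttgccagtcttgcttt
Prex1: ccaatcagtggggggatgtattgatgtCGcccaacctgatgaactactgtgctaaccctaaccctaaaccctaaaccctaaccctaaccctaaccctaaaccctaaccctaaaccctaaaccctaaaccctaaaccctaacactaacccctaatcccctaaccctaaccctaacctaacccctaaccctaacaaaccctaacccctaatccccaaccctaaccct
Six3: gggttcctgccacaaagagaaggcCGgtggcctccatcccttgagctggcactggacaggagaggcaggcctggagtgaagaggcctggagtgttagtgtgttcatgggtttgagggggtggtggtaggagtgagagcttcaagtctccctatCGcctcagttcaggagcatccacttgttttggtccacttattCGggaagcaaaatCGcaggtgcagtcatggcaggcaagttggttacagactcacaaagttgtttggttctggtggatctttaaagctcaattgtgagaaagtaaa
Skor1: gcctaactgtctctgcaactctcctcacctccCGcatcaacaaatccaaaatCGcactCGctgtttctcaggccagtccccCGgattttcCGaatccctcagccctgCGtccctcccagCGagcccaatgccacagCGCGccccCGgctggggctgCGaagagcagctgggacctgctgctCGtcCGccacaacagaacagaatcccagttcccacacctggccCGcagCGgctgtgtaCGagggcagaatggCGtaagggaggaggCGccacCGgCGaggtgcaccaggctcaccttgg
Uncx: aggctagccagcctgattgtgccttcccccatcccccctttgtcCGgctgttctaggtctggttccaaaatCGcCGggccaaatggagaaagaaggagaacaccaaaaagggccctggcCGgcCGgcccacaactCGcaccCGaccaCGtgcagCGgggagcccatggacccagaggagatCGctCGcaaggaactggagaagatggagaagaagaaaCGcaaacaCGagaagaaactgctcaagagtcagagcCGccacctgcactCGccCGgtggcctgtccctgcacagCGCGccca
The Skor1 and Uncx windows held 20 and 18 CpG and the Gas8 window 13, whereas the Six3 window held 4 and the Prex1 member 1. The Prex1 member is a run of the telomere hexamer: CCCTAA, read on both strands, occurred 22 times in its 225 bp, and 6 of all mESC peaks (0.0692%) had 5 or more in a window of that length. Only 9.28% of its 32-base words occurred at more than 1 place in the genome. Sequence called unique here can therefore still hold tandem repeats.

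H3K27me3, which had no part in choosing the members, covered nearly all of them in NPC. In wild type NPC 751 of 762 members were overlapped by an H3K27me3 peak (98.6%, interval 97.4 to 99.2), against 32% of all mESC H2AK119ub1 peaks. In PCGF5-depleted NPC the number was 758 (99.5%, 98.7 to 99.8), against 35.8%. In mESC the shares were lower, at 583 members (76.5%, 73.4 to 79.4, against 38.8%) in wild type and 482 (63.3%, 59.8 to 66.6, against 26.4%) in PCGF5-depleted cells. Each share of members was therefore above that of all mESC peaks, which include the members. The intervals treat members as independent, but 622 of them lay within 10 kb of another member. In wild type NPC the overlaps came from 477 H3K27me3 peaks. The intervals are thus too narrow to judge these differences by. With 1 library of each genotype, the difference between the mESC shares was not tested. An H3K27me3 peak was present in all 4 lists at 405 members (53.1%, against 12.7%), in 3 lists at 246, in 2 at 105 and in 1 at 6. Over all mESC peaks, 53.9% had it in at least 1 list, 39.9% in at least 2 and 26.5% in at least 3. No member lacked it in all 4 (an upper limit of 0.502%). For 175 members (23.0%, 20.1 to 26.1) H3K27me3 was called in wild type NPC and not in wild type mESC, and for 7 the reverse held.

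The other overlap classes differed from the members in this respect. Peaks kept in wild type NPC alone had H3K27me3 in wild type NPC at 93.5% (91.4 to 95.1) but in wild type mESC at only 46.9% (43.1 to 50.7). Peaks kept in PCGF5-depleted NPC alone had it in wild type mESC at 79.0% (75.3 to 82.2), close to the members. In wild type NPC their share was 66.6% (62.5 to 70.4), and it was lower in repeated than in unique DNA, as given below. In PCGF5-depleted NPC it was 84.5% (81.2 to 87.3). Peaks kept in neither NPC had it at 30.5% in wild type mESC and at 15.6% in wild type NPC.

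**Figure D1:**
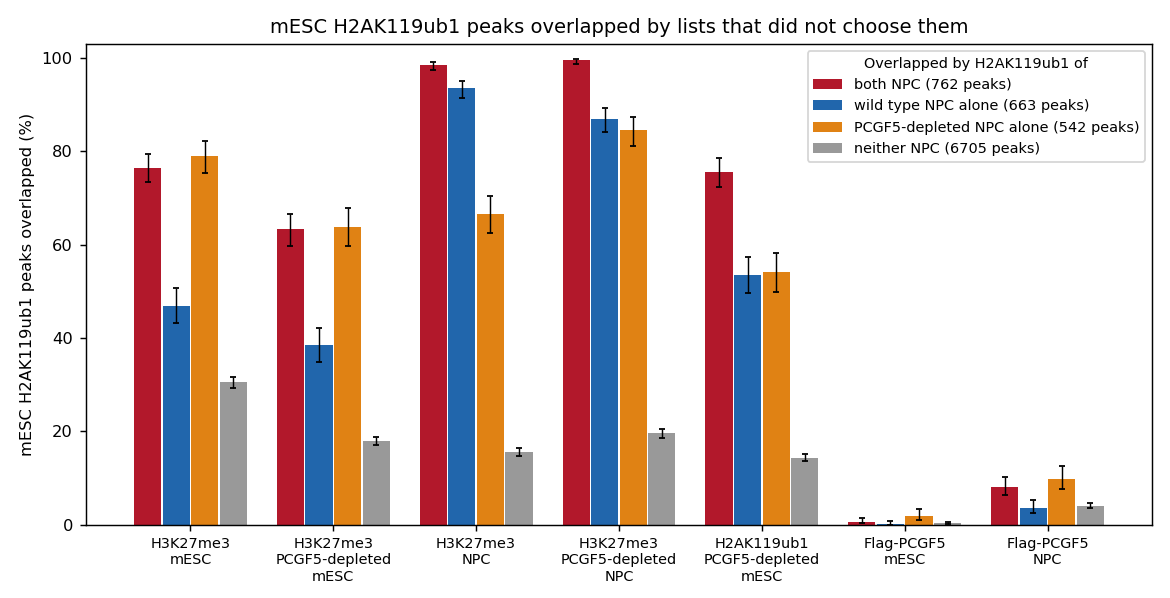
Percent of wild type mESC H2AK119ub1 peaks overlapped by at least 1 bp by a peak of 7 lists that did not enter the choice of members (x axis), for the 4 overlap classes (colours). Bars are shares, and error lines are 95% Wilson intervals. Members (both NPC, 762 peaks) reached 98.6% and 99.5% for H3K27me3 in NPC and 75.6% for H2AK119ub1 in PCGF5-depleted mESC.

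H2AK119ub1 in PCGF5-depleted mESC, the remaining list of the mark, overlapped 576 members (75.6%, 72.4 to 78.5, against 25.2% of all mESC peaks). The share was 53.5% among peaks kept in wild type NPC alone, 54.1% among those kept in PCGF5-depleted NPC alone and 14.4% among those kept in neither. In other words, a peak that persisted in both NPC lists was also found more often in a second mESC library. Members were also wider, with a median of 412 bp, against 248 bp for wild type NPC alone and 307 bp for PCGF5-depleted NPC alone. Among peaks of 200 to 400 bp outside repeated DNA (defined below), the shares of these 3 classes were 59.1%, 53.8% and 42.1%. At 800 bp or more they were 92%, 88.9% and 78.1%.

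As many members lay in tandem repeats, the shares were also read among the 629 members in unique sequence, where most 32-base words of the peak occur at 1 place in the genome. There H3K27me3 overlapped 72.2% of members in wild type mESC, 56.1% in PCGF5-depleted mESC, 98.6% in wild type NPC and 99.5% in PCGF5-depleted NPC, and H2AK119ub1 of PCGF5-depleted mESC 71.1%. Over all mESC peaks in unique sequence the shares were 32.6%, 21.8%, 35.2%, 36% and 21.3%. Of peaks kept in PCGF5-depleted NPC alone, 334 were in unique sequence, and 83.5% of these had H3K27me3 in wild type NPC. Of the 208 in repeated sequence 39.4% had it. Peaks in unique sequence were then split by width. Between 200 and 400 bp, H3K27me3 in wild type mESC overlapped 65.3% of 242 members and 25.1% of 2325 peaks kept in neither NPC. In wild type NPC the same bands gave 99.2% and 18.3%. Below 200 bp, where 93 members lay, 48.4% of members had H3K27me3 in wild type mESC and 94.6% in wild type NPC, whereas peaks kept in neither had 16.9% and 13.8%. The share in mESC was higher in wider members, at 95% of the 100 members of 800 bp or more, while the share in NPC was high in every band. Peaks kept in PCGF5-depleted NPC alone had the wild type mESC share at 60%, 67.1%, 90.2% and 100% from the narrowest band up, above members in each. Peaks kept in wild type NPC alone had the wild type NPC share at 93.1%, 96.4%, 100% and 94.4%, near the members. Members were above the former class in wild type NPC and above the latter in wild type mESC in every band.

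The 11 members without H3K27me3 in wild type NPC were few enough to name. They lay at or near Pax5, Pax7, Prdm16, Foxb1, Mn1 (2 members), Drd5, Stmn4, Npffr2, Ulk4 and 4933430H15Rik. The Mn1 member at the promoter had 1597 bp and a fold of 7.75 in wild type mESC, and H3K27me3 folds of 6.69 in mESC, 6.61 in PCGF5-depleted mESC and 3.81 in PCGF5-depleted NPC, with no peak in wild type NPC. Mn1 encodes a transcriptional coregulator. Foxb1, a forkhead factor of the developing brain, had 1 member of 140 bp with H3K27me3 folds of 4.30, 6.22 and 6.48 in the same 3 lists. At the Foxb1 promoter window H3K27me3 covered 547 bp in wild type NPC, against 4195 bp in PCGF5-depleted NPC. The 4 members without H3K27me3 in PCGF5-depleted NPC were the Drd5, Npffr2 and Prex1 members and 1 at the promoter of Scarf2.

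Around the members H3K27me3 in NPC of both genotypes, and H2AK119ub1 in wild type NPC, extended far beyond the mESC peak. At 1000 bp from the centre of the 629 members of unique sequence, H3K27me3 of wild type NPC was present at 84.5% of positions, against 29.2% for wild type mESC. At 5 kb it was still present at 51.0% and at 10 kb at 28.8%. The profile of PCGF5-depleted NPC was lower at each of these distances, at 73.8%, 43.0% and 23.6%, and that of PCGF5-depleted mESC stood at 21.9%, 11.0% and 5.80%. H3K27me3 peaks of wild type NPC at these members had a median width of 3174 bp against 453 bp in the whole list. In PCGF5-depleted NPC the median was 1470 bp against 360 bp, and in wild type mESC it was 472 bp against 266 bp.

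In wild type mESC H3K27me3 stood at 10.8% at 5 kb and 5.01% at 10 kb, slightly below PCGF5-depleted mESC at both distances and above it at 1000 bp. H2AK119ub1 was likewise lower in PCGF5-depleted than in wild type NPC. At 1000 bp it was present at 44.1% in wild type NPC, 20.6% in PCGF5-depleted NPC, 26.2% in wild type mESC and 28.7% in PCGF5-depleted mESC. At 5 kb these values were 26.2%, 8.03%, 12.4% and 16.2%. At both distances PCGF5-depleted NPC stood lowest of the 4 lists. These libraries differ in length of list and unknown depth, whose part in the width was not tested.

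**Figure D2:**
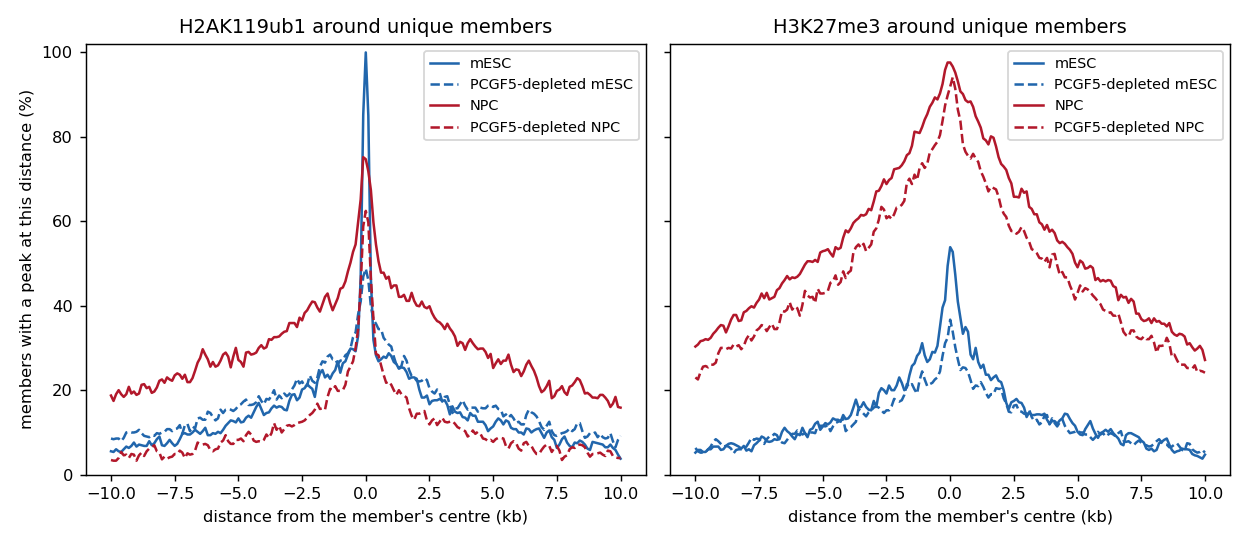
Percent of the 629 members in unique sequence with a peak of each list (y axis) at a distance of up to 10 kb either side of the member's centre (x axis, kb), for H2AK119ub1 (left) and H3K27me3 (right). Blue lines are mESC, red lines NPC, and broken lines PCGF5-depleted cells. H3K27me3 of wild type NPC falls from 97.6% at the centre to 51.0% at 5 kb, while H2AK119ub1 of PCGF5-depleted NPC falls from 62.5% to 8.03%.

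Within the mESC list the members were wider than the rest. Their median width was 412 bp (range 139 to 4861), against 217 bp over all 8672 peaks and 201 bp for peaks kept in neither NPC, and 123 were 1000 bp or wider. The median fold enrichment, as the peak caller gave it, was 5.32 (range 2.02 to 11.47) against 4.61 in the list, and the median member stood at percentile 75.4 of fold within the list. H2AK119ub1 peaks at members in the other lists stood at median percentiles of 54.0 in PCGF5-depleted mESC, 40.3 in NPC and 56.4 in PCGF5-depleted NPC, so they were of middling fold there. At members in unique sequence these percentiles were 61.3, 53.1 and 59.1. Ranked by the significance that the peak caller gave, peaks at all members stood higher, at 76.8, 66.7 and 63.8. For H3K27me3 the fold percentiles were 77.7 and 67.5 in wild type and PCGF5-depleted mESC and 88.9 and 85.3 in the corresponding NPC. The least overlapped members shared 1 bp with an NPC peak and lay near Barx1, Wnt7b and Lhx4, while the nearest peaks outside the set lay near Evx1, Gbx1 and Cdx2, at 0, 3 and 4 bp from the missing PCGF5-depleted NPC peak.

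**Figure D3:**
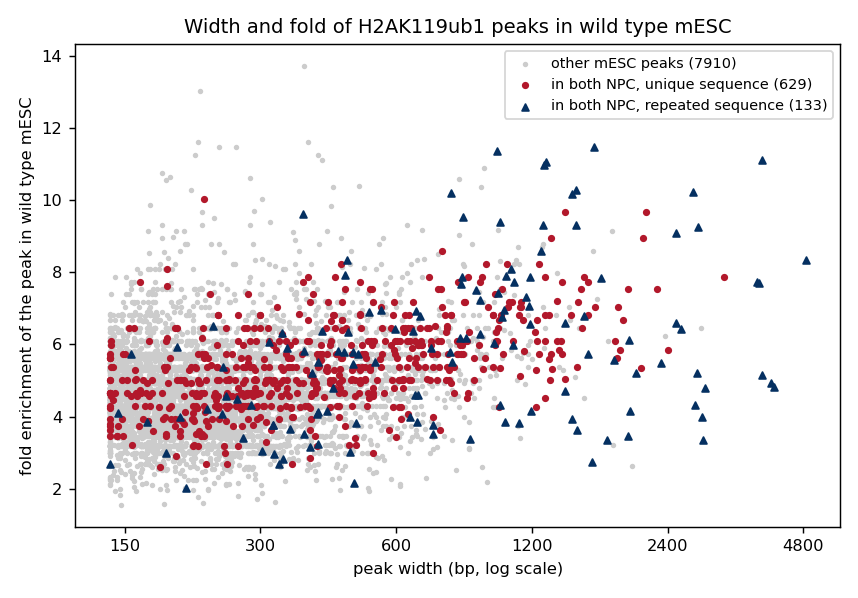
Peak width (x axis, bp, log scale) and fold enrichment (y axis) of the 8672 H2AK119ub1 peaks of wild type mESC. Grey points are the 7910 peaks that are not members, red points the 629 members in unique sequence and dark triangles the 133 members in repeated sequence. Triangles make up 9 of the 10 members of highest fold and 9 of the 10 widest.

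The widest and strongest members lay in repeated DNA. A peak was placed in repeated sequence when over 50% of its 32-base words occurred at more than 1 place in the genome. This held for 133 members (17.5%, 14.9 to 20.3, against 20% of all mESC peaks), which made up 31.8% of the bases of all members, and the other 629 members are those of unique sequence. The share over all mESC peaks lay within the interval of the members. The repeated members had a median width of 831 bp against 380 bp in unique sequence. Peaks kept in PCGF5-depleted NPC alone were in repeated sequence at 38.4% and those kept in wild type NPC alone at 5.13%. How reads with several equally good places were treated is not given in the sources used here.

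There were 3 tandem blocks with 98 of the members (12.9%). The largest, between Gas8 and Rhou (chr8:126061285-126148226), held 41 members and is an array of 5S ribosomal RNA genes, which RNA polymerase III transcribes. The annotation placed 51 ribosomal RNA genes there, 32 of them identical in sequence, and 32 were overlapped by a member. Their starts were a median of 1697 bp apart. The second block lay between Ezh2 and Pdia4 (chr6:47602749-47728220) and held 46 members in units that recurred at 4321 bp. In the newer assembly GRCm38 RefSeq names the gene Rn4.5s between the same neighbours. The third lay between Hrh1 and Atg7 (chr6:114501305-114575702), with a unit of 2458 bp, and held 11 members among the 78 mESC peaks of this span. Counted over the whole block there were 147 mESC peaks. Of these, 78 were kept in PCGF5-depleted NPC alone and 58 in neither NPC.

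All 98 of these members had H3K27me3 in all 4 lists and H2AK119ub1 in PCGF5-depleted mESC. In the 5S array H3K27me3 covered 92.1% of the span in wild type mESC, 92.2% in PCGF5-depleted mESC, 95.1% in wild type NPC and 90.7% in PCGF5-depleted NPC. H2AK119ub1 covered 87.0%, 71.1%, 34.5% and 59.2% in the same order. The H3K27me3 cover was therefore nearly the same in the 4 lists, and the H2AK119ub1 cover was lowest in wild type NPC. The Ezh2 to Pdia4 block had the same lowest list, with H2AK119ub1 at 44.2%, 39.6%, 28.3% and 42.8% and H3K27me3 at 48.1%, 48.9%, 52.2% and 53.0%. In the Hrh1 to Atg7 block H2AK119ub1 covered 34.8%, 31.2%, 3.33% and 20.5%, and H3K27me3 covered 33.7%, 48.3%, 13% and 34.4%. Flag-PCGF5 had no peak in the 5S array or in the Hrh1 to Atg7 block, and 1 peak, in mESC, in the Ezh2 to Pdia4 block.

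Members came in groups. When members within 10 kb of each other were joined, they fell into 289 loci, of which 140 held a single member, 149 held 2 or more and 35 held 5 or more. The 149 held 622 members (81.6%). The 5 loci with most members were the 5S array (41), the HoxA cluster (24), both sides of the Ezh2 to Pdia4 block (24 and 22) and the Pax7 locus (12). They were followed by Hmx1 and Hoxb3 (10 each), Pitx1 and Hoxb5 (9 each) and Uncx, Tbx1, Pax2 and Barx1 (8 each). Apart from the repeat blocks, the loci with 8 or more members thus all lay at genes for transcription factors with a homeobox, paired or T-box domain.

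The HoxA locus (chr6:52155920-52212539) carries the posterior part of a cluster of homeobox genes that give cells their position along the body axis, and had members at the promoters of Hoxa5, Hoxa6, Hoxa7, Hoxa9, Hoxa10, Hoxa11 and Hoxa13. In wild type mESC 38 H2AK119ub1 peaks covered 15209 bp of it, and in PCGF5-depleted mESC 47 peaks covered 18036 bp. In wild type NPC 32 peaks covered 45329 bp, and in PCGF5-depleted NPC 38 peaks covered 12531 bp. The mark thus formed long blocks in wild type NPC and short separate peaks in the other 3 lists. H3K27me3 covered 9770 bp and 7442 bp in wild type and PCGF5-depleted mESC, and 49920 bp and 44192 bp in the corresponding NPC. It filled most of the locus in NPC of both genotypes, also where H2AK119ub1 was called over a shorter length. No Flag-PCGF5 peak lay in the HoxA locus.

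**Figure D4:**
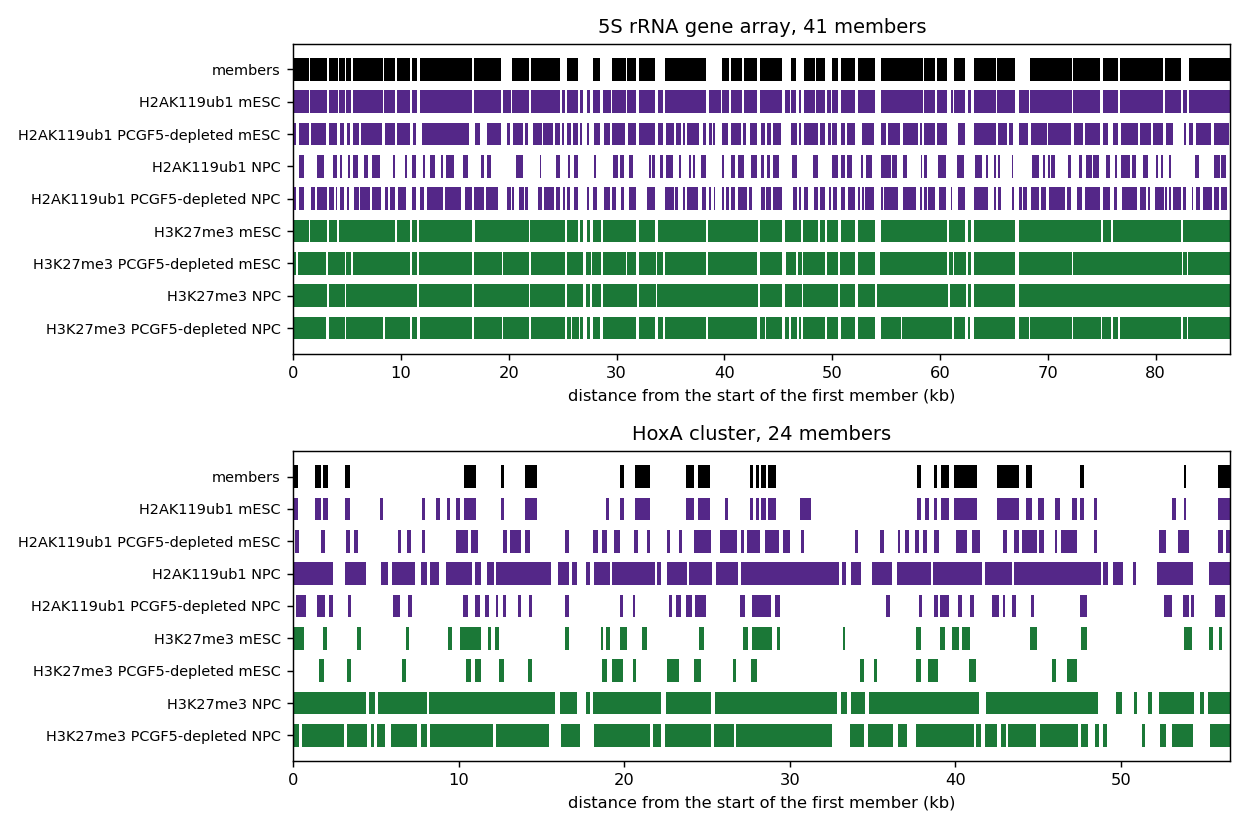
Peaks of the 8 histone lists over the 5S ribosomal RNA gene array (top) and the HoxA cluster (bottom), with members in black, H2AK119ub1 in purple and H3K27me3 in green. The x axis is the distance in kb from the start of the first member. In the 5S array H3K27me3 covers 90.7% to 95.1% in every list, and in the HoxA cluster H2AK119ub1 covers 45329 bp in wild type NPC but 12531 bp in PCGF5-depleted NPC.

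The Pax7 locus (chr4:139374810-139393426), at a paired-box gene of neural crest and muscle progenitors, spanned 18617 bp. H2AK119ub1 covered 10153 bp in wild type mESC, 13058 bp in PCGF5-depleted mESC, 9223 bp in wild type NPC and, in PCGF5-depleted NPC, 6986 bp. H3K27me3 covered 6292 bp, 3659 bp, 15322 bp and 16856 bp in the same order. H2AK119ub1 was again shortest in PCGF5-depleted NPC, and H3K27me3 was longer in both NPC than in either mESC list.

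By position, 408 members (53.5%, 50.0 to 57.1) were centred at most 2500 bp from where a protein-coding gene starts, here called a promoter, against 30.1% of all mESC peaks. With a limit of 1000 bp the share was 26.0%. At 2500 bp it was 62.5% (58.6 to 66.2) of the members in unique sequence. The others lay in intergenic sequence (161 members, 21.1%), introns (145, 19%), coding exons (37, 4.86%) and other parts of exons (11). Of all members, 608 (79.8%) lay within 10 kb of a start site, and 510 were downstream of their nearest start. Over all sequence the share at promoters was 50.4% (46.6 to 54.2) for peaks kept in wild type NPC alone, which overlaps the interval of the members. For peaks kept in PCGF5-depleted NPC alone it was 41.9% (37.8 to 46.1). In unique sequence the former class stood at 51.4% (47.4 to 55.2), below the members. The latter class stood at 61.7% (56.4 to 66.7) there, near the members, and all mESC peaks in unique sequence at 34.4%.

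The promoters of 250 genes had a member, 1.12% of 22232 protein-coding genes, while 1488 genes (6.69%) had any mESC H2AK119ub1 peak. With the limit of 1000 bp there were 151 genes. The 250 genes had 1 member in 139 cases, 2 or more in 111 and 3 or more in 43. Genes of 10 lists of developmental transcription factors made up 131 of the 250 (52.4%), against 12.7% of the genes with any mESC peak. These lists were drawn up with earlier results of these data known and are a description of the set.

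Homeobox genes were the largest group. Members marked 23 of 39 Hox genes (59.0%, 43.4 to 72.9) and 59 of 104 other homeobox genes (56.7%, 47.1 to 65.8), as well as 7 of 9 Pax genes and 4 of 6 GATA genes. Forkhead genes (10 of 26), developmental zinc finger genes (12 of 35) and POU genes (3 of 9) followed. Fewer members were found at T-box (3 of 16), basic helix-loop-helix (8 of 45) and Sox genes (2 of 16). The counts are read against the 1.12% of all genes, and 31 Hox, 79 other homeobox, 9 Sox and 19 helix-loop-helix genes had any mESC H2AK119ub1 peak. So did 7 Pax, 5 GATA, 15 forkhead, 16 zinc finger, 3 POU and 5 T-box genes. Only such genes could hold a member, so the order of the lists also depends on which genes had the mark in mESC.

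Among the homeobox genes, Lmx1b, a LIM factor of dorsal limb and midbrain, had 3 members with a highest fold of 9.68. Irx5 and Six3 each had a highest fold of 7.89. Six3, a forebrain and eye factor, held the widest member in unique sequence, at 3196 bp (chr17:86020383-86023578). Its H2AK119ub1 folds were 7.89 in mESC, 3.37 in PCGF5-depleted mESC, 5.54 in NPC and 9.49 in PCGF5-depleted NPC, and its H3K27me3 folds were 5.09, 6.22, 7.67 and 4.66. Folds are on a scale of their own in each list, so these show the presence of a peak in all 8 and not an order. Of the Hox genes, Hoxa9, Hoxb5, Hoxd11 and Hoxd9 had the highest folds, from 6.85 to 8.60. Of the Pax genes, Pax6, which marks neural progenitors and the eye, had 8.96 and Pax2, a kidney and hindbrain factor, 7.39.

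The other factors with the highest folds in their lists were Foxf1a (7.04) and Foxc2 (6.81), forkhead genes of mesoderm, and Tbx4 (7.20) and Tbx1 (7.04) of the T-box family. Gata2 and Gata4, of blood and heart development, both had 6.81. Neurod2 (7.53), Neurog1 and Olig2 (6.09 each) are helix-loop-helix genes of neurons and of oligodendrocyte and motor neuron progenitors. Pou3f3 had 6.45, Sox14 6.81 and Egr3, an immediate-early zinc finger gene, 7.75. Thus genes of mesoderm and of neural fates stood side by side in the set.

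Signalling genes with a member were rarer, with 10 of 94, and 32 of the 94 had any mESC H2AK119ub1 peak. The 10 were the ligands Wnt1, Wnt7b and Wnt10a (3 of 25 Wnt genes), Fgf3, Fgf8 and Fgf9 (3 of 22), Shh, Ihh and the Notch ligand Dll4 (3 of 12), and Inhbb, the inhibin beta B subunit, as 1 of 35 TGF-β and BMP genes. Dll4 had the highest fold of these, at 8.24. No member lay at the promoters of Nodal, Lefty1 or Lefty2, the TGF-β genes that the study followed, nor at those of Nes, Cdh2 or Pou3f2. Of these 6 genes only Nes had a wild type mESC H2AK119ub1 peak there, so the others could hold no member. Sox1, another neural gene that the study followed, had no match among the annotated genes and was not examined. It is absent from the Sox and neural progenitor counts given here. Other lists gave 2 of 50 ion channel and receptor genes (Adra2c and Kcnk9), 2 of 28 imprinted genes (Igf2 and Rasgrf1) and 0 of 20 housekeeping genes. Of 26 Polycomb genes 2 had a member, among them Cbx8, which encodes a chromobox subunit of PRC1 itself.

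Marker genes of the cell types were also counted. Members lay at 1 of 22 pluripotency genes (Esrrb), 1 of 20 fibroblast genes (Pdgfra) and 5 of 19 neural progenitor genes (among them Neurog2, Pax6, Pou3f3 and Zic1). Any mESC H2AK119ub1 peak lay at 2, 3 and 9 genes of these lists. Over all protein-coding genes 1.12% had a member and 6.69% any mESC peak. H3K27me3 in the promoter window was called at 1 pluripotency gene in wild type mESC, 2 in PCGF5-depleted mESC, 11 in wild type NPC and 5 in PCGF5-depleted NPC. At fibroblast genes, which would mark feeder cells, the counts were 7, 10, 8 and 8. At the 19 neural progenitor genes they were 10, 12, 13 and 16, so more were marked in NPC than in mESC of either genotype. At the 20 housekeeping genes they were 0, 1, 1 and 1. In the wild type lists the mESC and NPC labels thus went with few and many marked pluripotency genes, respectively. The share over all protein-coding genes was not set beside these H3K27me3 counts. Whether they differ from the general level of each list was not tested. Neural progenitor genes were not marked less often in NPC.

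**Figure D5:**
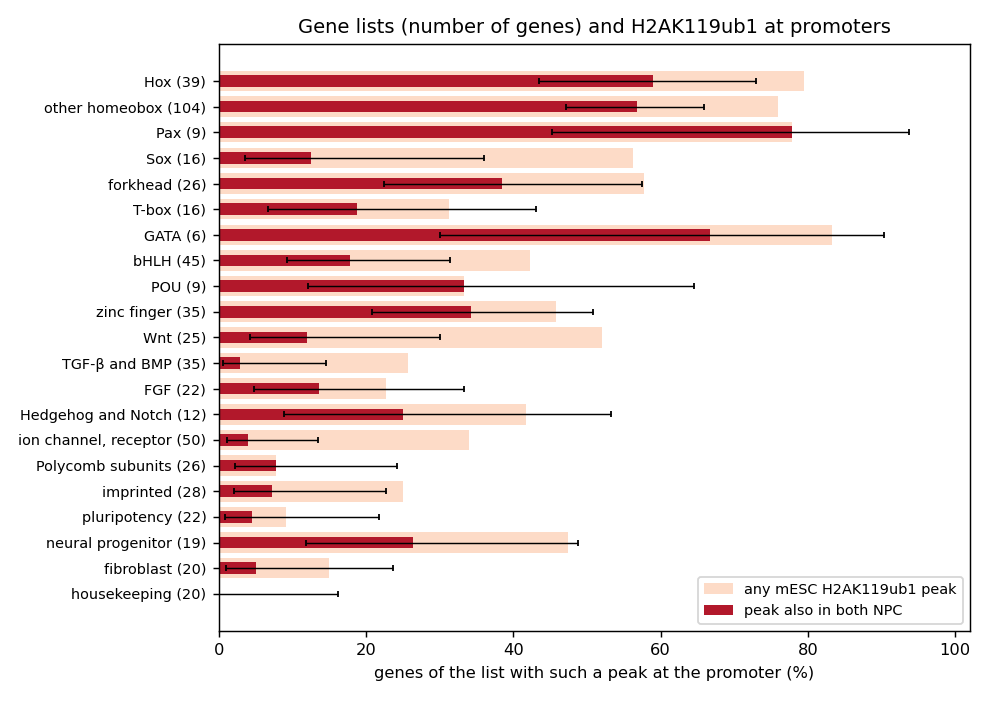
Percent of the genes of each list (y axis, number of genes in parentheses) with a member at the promoter (dark bars, with 95% Wilson intervals) and with any H2AK119ub1 peak of wild type mESC there (pale bars). Hox genes stand at 59.0%, other homeobox genes at 56.7% and housekeeping genes at 0%.

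The promoter windows of the 250 genes, 2500 bp either side of each start (median 5002 bp a gene), carried both marks in almost every list. H3K27me3 was present in 246 in wild type mESC, 240 in PCGF5-depleted mESC, 248 in wild type NPC and 250 in PCGF5-depleted NPC. All 4 lists had it at 237 genes (94.8%), against 50.9% of the 1238 other genes with an mESC H2AK119ub1 peak. H2AK119ub1 of PCGF5-depleted mESC was present at 91.2%, against 40.9%. The median H3K27me3 cover was 1567 bp in wild type mESC, 1209.5 bp in PCGF5-depleted mESC, 4275 bp in wild type NPC and, in PCGF5-depleted NPC, 3672.5 bp. At the other 1238 genes the medians were 566 bp, 415 bp, 981 bp and 802.5 bp. So at genes with a member H3K27me3 took up most of the window in NPC, and more of it in wild type than in PCGF5-depleted cells.

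Gene by gene, H3K27me3 covered more of the window in wild type NPC than in wild type mESC at 238 of the 250 genes and less at 11, against 679 and 345 of the other 1238 genes. It covered less in PCGF5-depleted than in wild type NPC at 201 genes and more at 49, against 556 and 357. In mESC it covered less in PCGF5-depleted cells at 164 genes and more at 83, against 641 and 380, so the lower cover in PCGF5-depleted cells was found at both sets of genes. H2AK119ub1 had median covers of 1155.5 bp, 1102.5 bp, 1719.5 bp and 1041.5 bp in wild type mESC, PCGF5-depleted mESC, wild type NPC and PCGF5-depleted NPC. It was shorter in PCGF5-depleted than in wild type NPC at 193 genes and longer at 57, and in mESC shorter at 146 and longer at 104. At the other 1238 genes the counts were 243 shorter and 208 longer in NPC, and 1021 shorter and 217 longer in mESC, where both sets were chosen for a wild type peak. With 1 library of each kind and unknown depth, a lower mark and a shallower library cannot be told apart, and no difference was tested.

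Single genes, of which Hoxa5, Foxf2 and Pou3f1 were chosen after their values were seen, departed from these medians. At Hoxa5 H2AK119ub1 covered 703 bp in wild type mESC, 854 bp in PCGF5-depleted mESC, 4212 bp in wild type NPC and, in PCGF5-depleted NPC, 1092 bp, beside H3K27me3 of 1613 bp, 472 bp, 5001 bp and 3154 bp. Over the wider window of Hoxa9, H2AK119ub1 covered 2844 bp, 4236 bp, 8554 bp and 2173 bp. Both were longest in wild type NPC. At Foxf2, a forkhead gene, it covered 1872 bp, 1391 bp, 834 bp and 2077 bp, and at Pou3f1, a POU factor of early neural cells, 926 bp, 1250 bp, 263 bp and 1026 bp. Both of these were shortest in wild type NPC. At Igf2, a growth factor gene expressed from the paternal copy, it covered 4746 bp, 1842 bp, 3118 bp and 2558 bp.

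Flag-PCGF5 peaks met few members. In NPC 61 members were overlapped (8.01%, 6.28 to 10.1, against 4.72% of all mESC peaks), and in mESC 5 (0.656%, 0.281 to 1.53, against 0.438%). The NPC share depended on the peak lists, at 3.69% with the higher-scoring 50% of every list and 14.8% with peaks within 1000 bp merged. In NPC the share was 9.78% (7.55 to 12.6) among peaks kept in PCGF5-depleted NPC alone and 3.62% (2.44 to 5.33) among those kept in wild type NPC alone. In unique sequence members had 9.54%, all mESC peaks 5.55% and peaks kept in PCGF5-depleted NPC alone 14.1%. By width there, from the narrowest band up, members had 4.30%, 9.50%, 12.4% and 9%. Peaks kept in neither NPC had 3.64%, 5.68%, 6.10% and 12.5%, so the widest members were not above them. That last band held 32 such peaks. The members with a Flag-PCGF5 peak and the highest mESC folds lay near Lhx1 (the mESC list) and near Tmem125, Mn1, Egr3, Nkx3-2, Nkx1-1, Hoxb5, Gsx1, Wnt1 and Foxf1a (the NPC list). The Flag folds of these NPC peaks ran from 1.95 at Mn1 to 3.64 at Egr3, and the median of all NPC Flag-PCGF5 peaks at members was 2.17, against 2.22 in the whole list. Flag-PCGF5 peaks at members were thus of ordinary fold for that list. The promoter windows of 68 of the 250 genes (27.2%) held an NPC Flag-PCGF5 peak, against 21.9% of the 1238 other genes.

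In sequence, members were rich in CpG. The median was 4.68 CpG per 100 bases, against 1.48 over all mESC peaks, and the median ratio of observed to expected CpG was 0.56, against 0.21. The ratio was 0.51 for peaks kept in PCGF5-depleted NPC alone, 0.34 for wild type NPC alone and 0.17 for neither. In unique sequence it was 0.58 for members and 0.68 for peaks kept in PCGF5-depleted NPC alone. GC content differed less, with medians of 59.3% in members and 57.8% over all mESC peaks. The members were therefore distinguished from the mESC list more by CpG than by GC, and peaks kept in PCGF5-depleted NPC alone had at least as many CpG in unique sequence.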

How the data were processed

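Histone libraries were made from chromatin digested with micrococcal nuclease and lightly fixed, with Drosophila chromatin added as a spike-in that does not enter the peak lists. Flag-PCGF5 libraries came from doubly crosslinked, sonicated chromatin. The authors trimmed reads with Trimmomatic, dropped those under 36 bp, aligned the rest with Bowtie2 (mm9), took out duplicates by means of Picard and ran MACS2 on each library, version 2.1.0 in the submitters' processing notes. Each deposited peak list gave the start, end and a score, the fold enrichment (a ratio over background), the −log10 p and the −log10 q. The 6 input libraries were not analysed here. How reads with several places were treated, and the read depth, are not given in the sources used here.

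Overlaps of at least 1 bp were computed in Python 3.11.15 and checked against bedtools 2.31.1 and on simulated data. The width is that of the deposited peak, and folds were compared only within a list, as percentiles, so the fold scale of one library was never set against another's. Genes and exons came from GENCODE M1 on NCBIM37, which matches mm9, and a promoter was a peak centre within 2500 bp of a protein-coding start. Uniqueness was measured by 32-base words of the genome. Named members were the 10 of highest fold, the 10 widest, the 5 loci with most members, up to 4 genes a list, the 10 strongest with Flag-PCGF5, those overlapped by no H3K27me3 list (there were 0) and those at the edge of the rule. The strongest and widest in unique sequence, and those lacking H3K27me3 in an NPC list, were added after the values were seen. Some genes and sequences that these rules name are not reported here. Groups followed the labels, with 1 library each, so shares have 95% Wilson intervals and no test between conditions was run. The members and gene lists were chosen with earlier results of these data known.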

Additional observations from a re-analysis of the deposited data

Results flagged for a closer look

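For 9 of 14 quantities compared, the change from wild type to PCGF5-depleted cells went one way in mESC and the other way in NPC. Each change rests on 1 library per group, and whether mESC and NPC differ in it was not tested. The share of members overlapped by H3K27me3 changed by -13.3 percentage points in mESC and by 0.919 in NPC. The NPC shares, 98.6% in wild type and 99.5% in PCGF5-depleted cells, changed order to 98.4% and 98.2% with 50% of the peak overlapped, 98.5% and 97.2% at its centre, and 96.6% and 96.3% with the higher-scoring 50% of every list. The number of genes with H3K27me3 in the promoter window changed by -6 and 2.

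The H2AK119ub1 cover of the 5S array between Gas8 and Rhou changed by -15.9 percentage points in mESC and by 24.7 in NPC. The block between Ezh2 and Pdia4 gave -4.52 and 14.5, and the block between Hrh1 and Atg7 gave -3.57 and 17.1. All 3 repeat blocks thus had less H2AK119ub1 cover in PCGF5-depleted mESC and more in PCGF5-depleted NPC. The HoxA locus changed by 2827 bp and -32798 bp and the Pax7 locus by 2905 bp and -2237 bp, while the median H2AK119ub1 cover of the 250 promoter genes was lower in PCGF5-depleted cells at both stages (-53 bp and -678 bp). H3K27me3 changed by 0.0748 and -4.37 percentage points in the 5S array, and by -2633 bp and 1534 bp at the Pax7 locus. Elsewhere H3K27me3 changed the same way at both stages. The changes were 0.775 and 0.808 percentage points in the Ezh2 to Pdia4 block and 14.6 and 21.4 in the Hrh1 to Atg7 block. At the HoxA locus they were -2328 bp and -5728 bp, and in the median of the promoter genes -357.5 bp and -602.5 bp.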

How the results depend on the processing

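Of 112 values from 12 results under 11 alternatives, 66 stayed within the 95% interval of the reported share or median or within 1.5 times the reported count, and 46 moved. None moved with a q-value limit of 0.05, NPC lists of equal length, autosomes only, or promoters defined by any base of the peak. Requiring 50% of the mESC peak to be overlapped gave 382 members at 152 genes, a median width of 343 bp, H3K27me3 in 65.7%, 49.0% and 98.2% (wild type mESC, PCGF5-depleted mESC and PCGF5-depleted NPC), H2AK119ub1 of PCGF5-depleted mESC in 62.6%, and Flag-PCGF5 in 0.262% (mESC) and 5.24% (NPC). Requiring its centre gave 400 members at 159 genes, 348.5 bp, 64.5%, 52.0% and 97.2% for H3K27me3, 63.0% for H2AK119ub1 and 0.25% for mESC Flag-PCGF5. The higher-scoring 50% of every list gave 298 members at 121 genes, 654.5 bp, a fold of 5.84, 49.3% at promoters, H3K27me3 in 96.6% (wild type NPC) and 96.3% (PCGF5-depleted NPC), H2AK119ub1 in 71.1% and NPC Flag-PCGF5 in 3.69%. Merging peaks within 1000 bp gave 473 members, 1355 bp, a fold of 5.74, 60.7% at promoters, H3K27me3 in 85.2% and 76.1% (wild type and PCGF5-depleted mESC), H2AK119ub1 in 82.0% and NPC Flag-PCGF5 in 14.8%. A promoter window of 1000 bp gave 26.0% at promoters and 151 genes. A further pair of alternatives was chosen after seeing the data. In unique sequence the values were 380 bp, 62.5% at promoters, H3K27me3 in 72.2% and 56.1% (wild type and PCGF5-depleted mESC) and H2AK119ub1 in 71.1%, and without the 3 repeat blocks 378 bp, 61.4%, 73.0%, 57.8% and 72.0%. Each alternative changes which peaks are members, and the cause of single shifts was not tested. No paired analysis was possible because each group had 1 library. Unknown depth limits every width and cover.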

Other observations

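Genes outside the lists also carried strong members. Skor1, a transcriptional corepressor gene, had 2 promoter members with a highest fold of 8.24, and Sim2, a helix-loop-helix gene, had 5 with 7.89. Cyp26b1, which degrades retinoic acid, had 2 with 7.17, and Rbfox3, the neuronal splicing regulator NeuN, had 2 with 7.17. At Rbfox3 H2AK119ub1 covered 5292 bp in wild type mESC, 857 bp in wild type NPC and, in PCGF5-depleted NPC, 610 bp.

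Outside the 3 blocks 35 members lay in repeated sequence. The heat shock genes Hspa1a and Hspa1b, near-identical neighbours, had members with folds of 7.88 (Hspa1a) and 7.22 and 4.11 (Hspa1b), and the split of reads between the copies is uncertain. A run of 8 members lay among predicted genes on chromosome 4, with the highest fold, 9.62, near Gm13285. These members had H3K27me3 in all 4 lists.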
